A study of Homo sapiens with 9 samples.

Results

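The NEK family guides are the single guide RNAs (sgRNAs) directed at the NIMA-related kinases NEK1 to NEK11 in a pooled knockout screen. They were taken as every row of the count table whose gene is a NEK member, which gave 44 of 3152 sgRNAs, 4 for each of 11 genes. The cells were RH4, an established human line of fusion-positive rhabdomyosarcoma that carries the PAX3::FOXO1 fusion and was grown in RPMI with 10% serum. All groups carried the Brunello kinome library, a lentiviral pool of sgRNAs against kinases and associated genes, at a coverage of 1000 cells per sgRNA. All were selected from 48 h on with 0.25 µg/ml puromycin over 72 h. The baseline group was harvested at that point. The other groups recovered for 72 h and then received either vehicle or 1.5 nM pralatrexate, a folate analogue that blocks dihydrofolate reductase, over 10 days with a passage every 4 days. Each group had 3 libraries made by PCR from genomic DNA, so reads count how often an sgRNA occurs among the harvested cells. Labels number the libraries as repeats. The study calls them triplicate cultures in one place and technical replicates in another, and p-values therefore cover only library-to-library spread, which may be technical.

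NEK kinases are serine/threonine kinases named after NIMA, a fungal protein needed for entry into mitosis. In human cells NEK2 helps to separate the centrosomes before mitosis, and NEK9 activates NEK6 and NEK7, which act on the mitotic spindle. NEK1 and NEK8 are linked to the primary cilium, a sensory organelle built on the centriole, and NEK1, NEK4, NEK10 and NEK11 have been tied to responses to DNA damage. In a knockout pool, sgRNAs against a gene that cells need to divide lose reads over time, those against a gene that restrains growth gain reads, and the remainder follow the bulk of the library.

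Read totals ran from 2468140 to 4602710 per library, and the mean per sgRNA was 1269.7 ± 152 reads in the baseline, 1289 ± 241 in the vehicle and 1098 ± 286 in the pralatrexate libraries (SD, n = 3 each). All 44 NEK sgRNAs passed the filter of a mean of 30 reads over the 9 libraries, as did 3145 of 3152 overall. Their lowest count in any library was 18. Levels are given below as reads per 1000000 (CPM), corrected for library size and composition. Libraries of a group varied by 13.2% (coefficient of variation between libraries, from the common dispersion of the edgeR fit). NEK sgRNAs together took 1.47% ± 0.0249 of reads at baseline, 1.51% ± 0.028 with vehicle and 1.48% ± 0.0205 with pralatrexate. Over the same groups the share of the 100 non-targeting sgRNAs, which cut nowhere in the genome by design, went from 3.29% ± 0.0166 to 4.2% ± 0.0445 and 4.16% ± 0.0438 (SD, n = 3 each). On a log2 scale, the mean NEK level relative to the mean non-targeting level was therefore -0.07 ± 0.02 at baseline, -0.39 ± 0.05 with vehicle and -0.42 ± 0.04 with pralatrexate. Fold changes below are relative to the whole library, and scaling to the non-targeting sgRNAs instead moved the median of all genes to -0.31 in vehicle against baseline and to -0.30 in pralatrexate against baseline.

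The deposited files name sgRNAs by gene and hold no guide sequences, so the cut sites are not placed here. The genes themselves lie on several chromosomes (GRCh38, GENCODE v44). NEK1 spans chr4:169369704-169612632 on the minus strand with 34 coding exons, and NEK2 spans chr1:211658657-211675630 on the minus strand with 8. NEK6 lies at chr9:124257606-124353307 and NEK7 at chr1:198156994-198322420, both on the plus strand with 9 coding exons each. NEK9 lies at chr14:75079353-75127344 on the minus strand and NEK8 at chr17:28725897-28743455 on the plus strand. NEK3 at chr13:52132639-52159597 and NEK5 at chr13:52033611-52129092 are neighbours on the minus strand. NEK4 at chr3:52708444-52770946, NEK10 at chr3:27106484-27369460 and NEK11 at chr3:131026850-131350465 share a chromosome without being adjacent.

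The comparison of vehicle with baseline asks which NEK genes RH4 cells need for growth in culture. NEK1 had the lowest log2 fold change of the family (mean over its sgRNAs -0.56, SD 0.67, n = 4 sgRNAs), followed by NEK2 (-0.28, SD 0.56) and NEK7 (-0.19, SD 0.61). In each of these 3 genes the low mean came from 1 or 2 sgRNAs. The other 8 genes lay between -0.02 (NEK6) and 0.23 (NEK5). When the sgRNAs of a gene were combined by robust rank aggregation, which asks whether they rank lower or higher among all sgRNAs than uniform ranks would, none of the 11 genes was depleted and none enriched at a false discovery rate (FDR) of 0.05. The background was 6.68% of 763 genes depleted and 0.393% enriched. Without adjustment, 1 of 11 NEK genes was depleted (NEK1, exact p = 0.0277, FDR 0.218) and 0 enriched, against 15.1% and 7.86% of all genes. By edgeR's quasi-likelihood test, 3 of 44 NEK sgRNAs fell and 4 rose (FDR 0.05 over all sgRNAs), against 12.8% and 6.26% of all sgRNAs tested (13.2% and 5.22% of the targeting ones). At an unadjusted p, 4 NEK sgRNAs were lower and 9 higher, and 31.3% of all sgRNAs passed in either direction. DESeq2 called 3 NEK sgRNAs lower and 8 higher at an FDR of 0.05, against 15.2% and 10.7% of all sgRNAs. The 4 that rose did so relative to the whole library, and with scaling to non-targeting sgRNAs none of them was called, while 12 NEK sgRNAs were called lower and 0 higher against 44.2% and 0.413% of all sgRNAs. Rank aggregation under that scaling called 0 of 11 NEK genes, with 6.29% of all genes depleted and 0.262% enriched.

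NEK1, a kinase linked to cilia, DNA repair and motor neuron disease, held the sgRNA that fell most in the family. NEK1 sgRNA 2 (sgRNAs are numbered 1 to 4 in the order of the count table) measured 354, 316 and 307 CPM in the baseline libraries, 129, 146 and 88.2 with vehicle, and 101, 150 and 127 with pralatrexate. Every day 10 library lay below every baseline library, and the vehicle and pralatrexate libraries overlapped. In vehicle against baseline it fell by 1.43 on the log2 scale (SE 0.193, 0.372 of the baseline level, edgeR FDR = 1.21e-06).

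NEK1 sgRNA 4 was the most abundant NEK sgRNA and held 60.3% of the NEK1 reads at baseline. It measured 1317, 1248 and 1337 CPM at baseline, 736, 796 and 772 with vehicle, and 717, 925 and 765 with pralatrexate. The baseline libraries again stood above all day 10 libraries with no overlap. It fell by 0.76 on the log2 scale (SE 0.0934, 0.591 of baseline, edgeR FDR = 2.25e-07). Both of these sgRNAs stayed called in each of the 6 fits that left out 1 library.

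The remaining NEK1 sgRNAs did not pass the test. NEK1 sgRNA 1 measured 330 ± 16.1 CPM at baseline and 331 ± 7.37 with vehicle (SD, n = 3), a log2 fold change of 0.00 with a 95% interval from -0.24 to 0.25. NEK1 sgRNA 3 measured 193 ± 35.6 and 185 ± 31.9 CPM, a log2 fold change of -0.06 with an interval from -0.45 to 0.32. Relative to the non-targeting sgRNAs, whose log2 fold changes ran from -0.05 to 0.67 with a median of 0.31, NEK1 sgRNAs 2, 3 and 4 lay below the whole range, sgRNA 3 just outside it. Left out in turn, the sgRNAs moved the NEK1 mean between -0.75 and -0.27.

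At the level of the gene, the NEK1 result differed by method. The mean log2 CPM of its sgRNAs was 8.75, 8.68 and 8.55 at baseline, 8.17, 8.20 and 7.91 with vehicle, and 8.06 ± 0.0998 (SD, n = 3) with pralatrexate, with no overlap between baseline and either later group. Summed over the sgRNAs, NEK1 reads stood at 0.648 of baseline with vehicle (95% interval 0.594 to 0.708, edgeR FDR = 4.2e-12). The limma test on gene means also called NEK1 lower (FDR = 6.16e-05), while rank aggregation did not. Neither the summed-read test nor limma measures the spread between sgRNAs (SD 0.67), and sgRNA 4 held 60.3% of NEK1 reads at baseline. Summed reads called 21% of all genes lower and 14.4% higher, and limma 19.8% and 9.04%.

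NEK8, whose loss causes cystic kidney disease and which sits in the base of the cilium, had sgRNAs on both sides of 0. NEK8 sgRNA 2 was the NEK sgRNA with the largest gain, at 197, 141 and 140 CPM at baseline, 229, 211 and 261 with vehicle, and 171, 259 and 224 with pralatrexate. The vehicle libraries lay above the baseline libraries, and 1 pralatrexate library fell within the baseline range. Its log2 fold change was 0.55 (SE 0.182, edgeR FDR = 0.0316), and it was called in 2 of the 6 fits that left out 1 library. The FDR was 0.143 without baseline replicate 2, 0.149 without baseline replicate 3, 0.0534 without vehicle replicate 1 and 0.127 without vehicle replicate 3. The other NEK8 sgRNAs ranged from -0.11 to 0.19, and the gene mean was 0.13 (SD 0.31), or -0.20 with non-targeting scaling.

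NEK2, which phosphorylates the linker that holds centrosomes together, had 1 sgRNA that fell. NEK2 sgRNA 3 measured 157, 179 and 225 CPM at baseline, 85.6, 78.9 and 96.6 with vehicle, and 102, 69.4 and 117 with pralatrexate. Baseline libraries lay above all day 10 libraries. It fell by 1.10 on the log2 scale (SE 0.225, 0.466 of baseline, edgeR FDR = 0.000504), and it stayed called in all 6 fits that left out 1 library.

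The other NEK2 sgRNAs had log2 fold changes of 0.08, 0.05 and -0.13, and their 95% intervals lay between -0.38 and 0.47. Without sgRNA 3 the NEK2 mean was -0.00. Per library, the NEK2 level was 7.90, 7.92 and 7.97 log2 CPM at baseline and 7.72, 7.59 and 7.67 with vehicle, which did not overlap. Of all genes, 24.4% lay lower and 19.5% higher without overlap of these groups, and of NEK genes 2 of 11 (NEK1 and NEK2) and 3 of 11 (NEK4, NEK9 and NEK11). NEK2 was called lower by limma on gene means (FDR = 0.00644) but not on summed reads (fold 0.886, 95% interval 0.798 to 0.984, edgeR FDR = 0.0645).

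The cascade of NEK9, NEK6 and NEK7 gave no gene call by rank aggregation. NEK9, the upstream kinase, had the highest sgRNA levels among these, at 317 to 551 CPM at baseline (means of 3 libraries). NEK9 sgRNA 2 measured 571, 515 and 515 CPM at baseline, 575, 692 and 693 with vehicle, and 602, 728 and 646 with pralatrexate, so that each later library lay above each baseline library, by little in vehicle replicate 1. Its log2 fold change of 0.29 (SE 0.105, edgeR FDR = 0.0493) lay at the threshold and became -0.04 with non-targeting scaling. It was called in 1 of 6 fits that left out 1 library, with an FDR of 0.0573, 0.159 and 0.155 without baseline replicates 1, 2 and 3 and of 0.146 and 0.164 without vehicle replicates 2 and 3. The NEK9 mean was 0.15 (SD 0.19), and summed reads stood at 1.10 of baseline (95% interval 1.02 to 1.19, edgeR FDR = 0.0436). Limma on gene means did not call NEK9 (FDR = 0.1), nor did rank aggregation (FDR 0.815), and its mean was -0.17 with non-targeting scaling.

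NEK6, a target of NEK9 that phosphorylates spindle motors, was at 8.51 ± 0.0313 log2 CPM at baseline and 8.49 ± 0.11 with vehicle (SD, n = 3). Its sgRNAs ran from -0.24 to 0.08 in log2 fold change, and none passed the test. Summed reads stood at 0.976 of baseline, with a 95% interval from 0.888 to 1.07.

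NEK7, the closest relative of NEK6 and also a component of the NLRP3 inflammasome, was the least well measured gene of the family. NEK7 sgRNA 3 had 86, 110 and 100 reads in the baseline libraries, 27, 18 and 100 with vehicle, and 37, 57 and 69 with pralatrexate. Vehicle replicate 3 lay within the baseline range and the other vehicle libraries well below it. Its log2 fold change was -1.10 with a 95% interval from -2.30 to 0.10 (edgeR FDR = 0.2), and without vehicle replicate 3 it was -2.07 (FDR = 0.0266). NEK7 sgRNA 4 had 58.6 ± 14.5 CPM at baseline and a log2 fold change of 0.04, with an interval from -0.62 to 0.70.

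Most NEK7 reads came from its other sgRNAs, at 529.8 ± 28.4 and 349 ± 26.8 CPM at baseline and 555 ± 73.1 and 410.5 ± 19.3 with vehicle (SD, n = 3). Their log2 fold changes were 0.07 and 0.24. The gene mean of -0.19 thus turned on sgRNA 3 and was 0.11 without it. Summed reads, in which that sgRNA counts little, stood at 1.07 of baseline (95% interval 0.963 to 1.19).

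Among the members tied to DNA damage, NEK4, which has been linked to the repair of double-strand breaks and to microtubule stability, held 1 sgRNA that rose. NEK4 sgRNA 2 measured 253, 234 and 239 CPM at baseline, 366, 308 and 336 with vehicle, and 306, 272 and 287 with pralatrexate. All later libraries lay above baseline, those with vehicle the highest. The log2 fold change of 0.47 (SE 0.131, edgeR FDR = 0.00935) was called in all 6 fits that left out 1 library. Scaled to non-targeting sgRNAs it was 0.15 and was not called (edgeR FDR = 0.37). The other NEK4 sgRNAs ranged from -0.11 to 0.17, and the gene mean was 0.17 (SD 0.24).

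NEK11, a checkpoint kinase that promotes the breakdown of the phosphatase CDC25A, had all 4 sgRNAs above 0. NEK11 sgRNA 1 measured 302, 367 and 354 CPM at baseline, 451, 446 and 421 with vehicle, and 435, 379 and 440.2 with pralatrexate, again with every later library above baseline. Its log2 fold change was 0.37 (SE 0.117, edgeR FDR = 0.0259), and 0.04 with non-targeting scaling. It was called in 2 of 6 fits that left out 1 library, and the FDR was 0.162 and 0.0517 without baseline replicates 1 and 3 and 0.0662 and 0.0543 without vehicle replicates 1 and 2. NEK11 sgRNA 4 had a close value of 0.35 that missed the threshold (SE 0.128, edgeR FDR = 0.0518).

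The NEK11 mean was 0.22 (SD 0.17), the second highest of the family relative to the whole library and -0.11 relative to non-targeting sgRNAs. Summed reads stood at 1.16 of baseline (95% interval 1.05 to 1.27, edgeR FDR = 0.0113), and limma on gene means gave an FDR of 0.0179. Rank aggregation gave an exact p of 0.0684 and an FDR of 0.685.

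NEK10, which takes part in the arrest before mitosis after ultraviolet damage, had no sgRNA that passed the test. Its sgRNAs ran from -0.02 to 0.24 around a mean of 0.10 (SD 0.14), and summed reads stood at 1.03 of baseline (95% interval 0.924 to 1.15).

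NEK3 and NEK5, neighbours on chromosome 13, have the least settled roles. NEK3, implicated in prolactin receptor signalling and microtubule dynamics, had the tightest sgRNAs of the family, from -0.00 to 0.19 with a mean of 0.08 (SD 0.0795). NEK5, linked to centrosome integrity and myoblast differentiation, had the highest mean, 0.23 (SD 0.13), with 4 of 4 sgRNAs above 0 and none past the sgRNA test. Its level was 8.30, 8.09 and 8.02 log2 CPM at baseline and 8.29, 8.36 and 8.44 with vehicle, which overlapped through baseline replicate 1. NEK5 summed reads stood at 1.16 of baseline (95% interval 1.05 to 1.29, edgeR FDR = 0.0134). Limma on gene means also called NEK5 higher (FDR = 0.0334), while rank aggregation did not (FDR 0.891). With non-targeting scaling its mean was -0.10.

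Set against the non-targeting sgRNAs, no NEK sgRNA lay above their range in vehicle against baseline, 33 of 44 lay within it and 11 below it. Of all 3046 targeting sgRNAs, 40.7% lay below that range and 0.394% above it. Below the non-targeting median lay 39 of 44 NEK sgRNAs and 90.8% of all targeting ones. The median over all targeting sgRNAs was also below that of the non-targeting ones (0.01 against 0.31). The median over NEK genes was 0.10 and that over all genes 0.02, or -0.23 and -0.31 with non-targeting scaling.

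Other kinases of the same processes were set beside the family. Their lists were chosen with earlier results of these data known, so the counts and medians are context and not a test. A list of 14 tested mitotic kinases held 7 genes depleted with vehicle and none enriched, with a median log2 fold change of -1.15. The lowest were CDK1, which drives entry into mitosis (-3.25, SD 0.72), the polo-like kinase PLK1 (-2.12, SD 0.47) and PLK4, which governs centriole duplication (-2.07, SD 1.17), each with 4 of 4 sgRNAs below 0 and FDR values between 0.00333 and 0.00735. Every NEK gene mean lay above the median of that list. Of all 4 polo-like kinases, including those not on the list, 2 were depleted and the highest mean was 0.135. Of 9 tested cilium-related kinases, 0 were depleted or enriched, with a median of 0.14. Of 8 kinases of the damage response, 3 were depleted, the checkpoint kinase CHEK1 (-2.20), the histone chaperone kinase TLK2 (-1.37) and ATR (-0.85), with a median of -0.65. All 3 lay below NEK1.

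Pralatrexate against vehicle asks whether loss of a NEK kinase changes growth under the antifolate. No NEK gene and no NEK sgRNA was called in either direction by rank aggregation or edgeR, and at an unadjusted p of 0.05 there were again 0 of 11 genes and 0 of 44 sgRNAs. DESeq2 called 0 of 44 sgRNAs too, against 0.318% of all sgRNAs lower and 0.0954% higher. The background was small as well, with 0.524% of genes depleted, 0% enriched, 0.0318% of sgRNAs lower and 0% higher (0.0328% of the targeting ones lower). Limma on gene means called 0 of 11 NEK genes and 0.524% of all genes lower. With non-targeting scaling the gene and sgRNA counts for the family were again 0, and 0.655% of all genes were depleted. At an unadjusted p, 5.6% of sgRNAs passed, and rank aggregation gave 3.93% of genes depleted and 5.37% enriched.

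The gene means lay between -0.13 (NEK5) and 0.07 (NEK6), against a median of 0.01 over all genes. Among all 763 genes NEK5 ranked 47 from the lowest and NEK6 ranked 612. Of the NEK genes 9 of 11 lay below 0, with either scaling, against 47.4% of all genes with the main scaling. That share was not counted with non-targeting scaling, where the median of all genes was 0.02, so the second count has no background. On summed reads the fold of pralatrexate over vehicle ran from 0.919 for NEK5 (95% interval 0.831 to 1.02) to 1.05 for NEK6 (0.957 to 1.16). The intervals of all 11 genes lay between 0.831 and 1.16. They measure the spread between libraries and not between sgRNAs, whose log2 fold changes had an SD of up to 0.41 (NEK7). The fit behind them had no term for replicate number. Of all genes, 0.786% were called lower and 0.131% higher on summed reads, and none of the NEK genes was. NEK1, the lowest gene against baseline, stood at 1.01 (0.921 to 1.1) and NEK2 at 0.955 (0.86 to 1.06). The sgRNAs that fell against baseline did not stand out here, with log2 fold changes of 0.05 (95% interval -0.35 to 0.45) for NEK1 sgRNA 2, 0.06 (-0.13 to 0.25) for NEK1 sgRNA 4 and 0.15 (-0.31 to 0.61) for NEK2 sgRNA 3.

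NEK5 was the only NEK gene whose pralatrexate and vehicle libraries did not overlap, at 8.21, 8.26 and 8.25 log2 CPM against 8.29, 8.36 and 8.44, with 4 of 4 sgRNAs below 0. Such separation was found for 3.41% of genes lower and 3.67% higher, and rank aggregation gave NEK5 an exact p of 0.146 and an FDR of 0.983. Libraries of the same repeat number were also compared as pairs. The labels give the numbers only, and the pairing was inferred from these data. Of the NEK genes, 5 of 11 were lower with pralatrexate in all 3 pairs and 0 were higher. Those lower were NEK2, NEK3, NEK4, NEK5 and NEK11, and of all genes 12.6% were lower and 13.5% higher. With non-targeting scaling 2 NEK genes were lower (NEK3 and NEK5) and 0 higher, against 8.52% and 16.9% of all genes. These counts were made after seeing the data. The pair differences of NEK5 were -0.08, -0.09 and -0.20 on the log2 scale and those of NEK3 -0.11, -0.07 and -0.01. They were -0.014, -0.056 and -0.080 for NEK2, -0.011, -0.108 and -0.009 for NEK4, and -0.009, -0.070 and -0.168 for NEK11. Several of these signs thus rest on very small differences. With the replicate number in the fit as a block, no NEK gene was called by rank aggregation.

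The lowest and highest NEK sgRNAs both belonged to NEK7 and had few reads. NEK7 sgRNA 4 had a log2 fold change of -0.54 (SE 0.326, edgeR FDR = 0.911) and NEK7 sgRNA 3 one of 0.46 (SE 0.602, edgeR FDR = 0.948). The former was the sole NEK sgRNA outside the range of the non-targeting ones (-0.43 to 0.47), where 1.48% of all targeting sgRNAs lay below it and 0.952% above. None of the mitotic, cilium or damage-response kinases was called in this comparison.

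Pralatrexate against baseline shares its baseline libraries with the first comparison, so its values are not independent of those above. Rank aggregation called 0 of 11 NEK genes, against 7.21% of all genes depleted and 0.262% enriched. NEK1 again had the lowest mean (-0.60, SD 0.60, exact p = 0.033, FDR 0.252), and without adjustment 1 of 11 NEK genes was depleted and 0 enriched, against 14.8% and 8.78% of all genes. By edgeR 3 of 44 NEK sgRNAs fell and 1 rose, against 13.1% and 5.98% of all sgRNAs (13.5% and 5.02% of the targeting ones). At an unadjusted p, 6 were lower and 6 higher, where 30.7% of all sgRNAs passed. DESeq2 called 5 lower and 4 higher, against 14.6% and 10% of all sgRNAs. The sgRNAs that fell by edgeR were NEK1 sgRNA 2 (-1.38, FDR = 2.24e-06), NEK1 sgRNA 4 (-0.70, FDR = 9.61e-07) and NEK2 sgRNA 3 (-0.95, FDR = 0.0024). They were the ones that fell by edgeR with vehicle.

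The sgRNA that rose by edgeR was NEK9 sgRNA 2 (0.30, FDR = 0.0423), which became -0.01 with non-targeting scaling. It was called in 1 of 6 fits that left out 1 library, with an FDR of 0.0525, 0.147 and 0.141 without baseline replicates 1, 2 and 3 and of 0.185 and 0.0668 without pralatrexate replicates 2 and 3. NEK8 sgRNA 2 had the highest log2 fold change (0.45) and missed the threshold (FDR = 0.0886). With non-targeting scaling 14 NEK sgRNAs were called lower and 0 higher, against 41.7% and 0.286% of all sgRNAs.

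On summed reads NEK1 stood at 0.652 of baseline (95% interval 0.597 to 0.712, edgeR FDR = 6.63e-12), NEK2 at 0.847 (0.762 to 0.94, FDR = 0.0101) and NEK9 at 1.10 (1.02 to 1.19, FDR = 0.036), where 22.8% of all genes were called lower and 16.1% higher. The limma test on gene means called NEK1 (FDR = 2.95e-05) and NEK2 (FDR = 0.00179) lower, against 19.9% of all genes. NEK1, NEK2 and NEK7 lay lower without overlap of the libraries and NEK9 and NEK11 higher, 3 and 2 of 11 genes against 25.6% and 20.3% of all genes. The other gene means were -0.31 for NEK2, -0.25 for NEK7, 0.02 for NEK3, 0.04 for NEK10, 0.05 for NEK6, 0.10 for NEK5, 0.11 for NEK8, 0.13 for NEK4, 0.14 for NEK11 and 0.17 for NEK9, and all 11 were below 0 with non-targeting scaling.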

How the data were processed

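The authors deposited raw counts of reads per sgRNA for 9 libraries, not normalized. The submitters' processing notes name Bowtie 1.0.0. Counting settings and molecular identifiers were not given in the sources used here, so PCR copies may count as separate reads. The authors' gene tables from MAGeCK hold their own fold changes, scores and p-values for vehicle against baseline and pralatrexate against vehicle, and were not used. Main text and methods of the study differ on how long selection lasted before the baseline harvest. The labels were followed.

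sgRNAs with a mean under 30 reads were removed. The remaining 3145 were fitted in edgeR 4.0.16 (R 4.3.3), by the quasi-likelihood test with TMM scaling and no term but group over all 9 libraries, with Benjamini-Hochberg adjustment. MAGeCK's rank aggregation was applied to one-sided edgeR p-values (those under 0.25 count), with exact p-values from order statistics, adjusted over 763 genes. Gene fold changes average the log2 values of the sgRNAs. Gene levels are mean log2 CPM (prior count 2). Alternatives used summed reads, limma 3.58.1, DESeq2 1.42.0, non-targeting scaling, other filters, fewer samples and a replicate block. Scripts were tested on simulated data. Deviations of same-numbered vehicle and pralatrexate libraries from their group means correlated at 0.175, 0.198 and 0.188, so the numbers were taken to pair these groups, as hinted by the data. With baseline they did not (-0.0307 to 0.0706).

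All 11 NEK genes are named, with the sgRNAs called by the main edgeR fit in any comparison and the lowest and highest NEK sgRNA of each comparison. Further sgRNAs called only by other settings are counted and not all named. Of the kinase lists, at most the 3 called members with the largest change are named. Members and lists were chosen with earlier results of these data known. Counts of genes lower or higher in every same-numbered pair, with both scalings, were added after seeing the data.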

Additional observations from a re-analysis of the deposited data

How the results depend on the processing

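None of the 11 NEK genes was called by rank aggregation under DESeq2, non-targeting scaling, either filter, the replicate block, the compared groups alone or with any 1 library left out. Other gene tests called some. In vehicle against baseline, summed reads called 1 lower and 3 higher and limma 2 and 2, and in pralatrexate against baseline summed reads called 2 lower and 1 higher and limma 2 lower. With the replicate block, pralatrexate against vehicle again had 0 NEK genes and 0 NEK sgRNAs called, and in pralatrexate against baseline 2 sgRNAs were higher in place of 1. The block changed no other count by over 1.5 times. Counts of NEK sgRNAs in vehicle against baseline went from 3 lower and 4 higher to 12 and 0 with non-targeting scaling and to 3 and 8 with DESeq2 (15.2% and 10.7% of all sgRNAs), and with 1 library left out from 1 (without baseline replicate 3) to 3 were higher and 3 to 4 lower. In pralatrexate against baseline, 3 lower and 1 higher became 14 and 0 with non-targeting scaling and 5 and 4 with DESeq2 (14.6% and 10% of all sgRNAs), and 0 to 2 were higher with 1 library left out. Shares of all sgRNAs were not counted for the left-out fits or the replicate block, so those counts have no background beside them. Of the gene fold changes, 416 kept direction and call, 13 were called only by another gene test and 33 changed sign. With non-targeting scaling, vehicle against baseline gave -0.25 for NEK3, -0.15 for NEK4, -0.10 for NEK5, -0.20 for NEK8, -0.17 for NEK9, -0.23 for NEK10 and -0.11 for NEK11. Pralatrexate against baseline gave -0.29, -0.18, -0.21, -0.20, -0.14, -0.27 and -0.17 for the same genes and -0.26 for NEK6. NEK7 turned to 0.15 and 0.067 in these comparisons with a minimum mean of 300 reads, which removes its 2 sparse sgRNAs, and to 0.097 and 0.0034 on summed reads. In pralatrexate against vehicle, summed reads gave 0.0084 for NEK1 and 0.027 for NEK10. With 1 library left out, signs turned for NEK6 in vehicle against baseline (-0.049 to 0.042), for NEK3 (-0.039 to 0.057) and NEK10 (-0.052 to 0.15) in pralatrexate against baseline, and in pralatrexate against vehicle for NEK1 (-0.12 to 0.016), NEK7 (-0.16 to 0.14), NEK8 (-0.073 to 0.046), NEK9 (-0.0056 to 0.046) and NEK10 (-0.15 to 0.049). Non-targeting scaling moved the median of all genes from 0.02 to -0.31 in vehicle against baseline. In pralatrexate against baseline that median moved from 0.01 to -0.30. Apart from this shift and from settings that remove sgRNAs or libraries, the cause was not tested. NEK7 sgRNAs 3 and 4 had the lowest baseline levels of the family, at 25.1 and 58.6 CPM.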
